A study of Arabidopsis thaliana with 28 samples.

Results

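Mature leaves of Arabidopsis thaliana Col-0 were compared with developing leaves of the same line, both sampled after 24 h of treatment, on Affymetrix ATH1 arrays. The members were chosen by their labels: 2 arrays of mature leaves and 5 of developing leaves at 24 h, 7 of the 28 arrays of the series. All plants were kept in a growth room on compost at 20 °C and 50% humidity with a 10 h light period, and the series title gives the treatment as low light at ambient CO2. The mature leaves came from plants treated for 24 h, and their leaf positions are not given in the labels used here. The developing leaves were those at insertions 19 to 21. Of the 5 developing arrays, 2 carry the same title, 24 h replicate 1, and were averaged as 1 replicate, which left 2 mature and 4 developing replicates. The other developing samples, 4 replicates at each of 2, 4, 12, 48 and 96 h, are used below to show how far a gene moved in developing leaves over the same days. The treatment letters of both leaf ages (AS, with an m for mature) are undefined in the labels.

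A leaf of Arabidopsis grows first by cell division and then by cell expansion, while its plastids are built and its stomata are laid down by asymmetric divisions in the young epidermis. Once expanded it exports sugar, and with age it recycles its proteins and plastids through autophagy and senescence programmes. Nutrients freed in old leaves feed the young ones.

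The values are linear MAS5 signals, each array scaled by the authors to the same trimmed mean. The array medians were 43.2 and 40.8 for mature leaves, against 46.5 and 44.8 for the doubled developing replicate 1 and 42, 42.9 and 45.6 for the others. The log2 ratio of the 3′ to the 5′ control probe sets, a sign of RNA integrity, was 1.12 and 2.14 for actin in mature leaves, against 1.61 to 2.03 in developing leaves. It was 1.25 and 1.55 for ubiquitin in mature leaves, against 1.37 to 1.69 in developing leaves. For GAPDH it was 0.54 and 0.22 in mature leaves, against 0.80 and 1.22 for the arrays of developing replicate 1 and 0.20 to 0.27 for the other developing replicates. The mature actin values lay on either side of the developing range, and the part of RNA integrity in the results was not tested. Among probe sets above the 40th percentile of signal, the log2 difference between mature and developing replicates had an SD of 1.06 to 1.18. Between the 2 mature replicates the SD was 0.29, and between pairs of developing replicates it was 0.26 to 0.39. The array titles number the mature arrays 107 and 111, after all developing arrays (4 to 102). If those numbers follow processing order, leaf age and processing cannot be told apart. Nothing in the labels states that replicates came from different plants, so the spread behind the p-values may be technical, and precision is limited by how few arrays there are. RNA came from whole leaves, in which fewer cells of a type and less RNA per cell cannot be told apart.

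The tissue markers were read first. The leaf genes RCA (Rubisco activase, 4778 ± 330 in mature and 4025 ± 685 in developing leaves) and LHCB4.1 (an antenna protein of photosystem II, 4736 ± 230 in mature and 3950 ± 673 in developing leaves) were high at both ages, and neither passed the test. Of the 3 measured leaf markers, the remaining one, LHCB4.2, passed as higher in mature leaves (log2 change 0.69), with its values given below. The root markers PYK10, EXPA7 and EXPA18 had means of 11.8, 12.3 and 28.8 in mature leaves, against 26.9, 22.6 and 30.2 in developing leaves. The flower markers UFO and SPL averaged 2.38 and 2.44 in mature leaves, against 2.47 and 3.01 in developing leaves. Here and below, values are means ± SD of the MAS5 signal, with n = 2 for mature and n = 4 for developing leaves at 24 h.

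The signal of a large part of the array differed between mature and developing leaves. Of 22746 probe sets, 10232 (45.0%) passed an adjusted p of 0.05 in limma, of which 4775 (21.0%) were higher and 5457 (24.0%) lower in mature leaves. At least 2-fold changes numbered 2224 up (9.78%) and 2441 down (10.7%), and 58 rises and 20 falls reached 4 on the log2 scale. The median log2 change of all probe sets was -0.02. In 3462 probe sets (15.2%) both mature values lay above all 24 developing values from 2 to 96 h, and in 4032 (17.7%) both lay below them. Of the 4665 changes of at least 2-fold, 4250 (91.1%) were of this kind. In 54.6% of probe sets both mature values lay apart from the 4 developing values at 24 h. Among the 13350 genes that can be named here, 40.7% passed, 18.4% higher and 22.3% lower in mature leaves (7.96% and 9.60% at least 2-fold), and in 51.1% the values at 24 h lay apart. The counts of gene groups below are to be read against these shares, which include many genes of low signal. Of the 13350 named genes, 6608 had a higher group mean above the median signal, against 10 of 10 autophagy and 8 of 8 chlorophyll synthesis genes. When only the 13647 probe sets above the 40th percentile of signal were tested, 65.3% passed, and 42.4% of these calls were higher in mature leaves. For lists of bright genes that larger share is the nearer one.

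**Figure D1:**
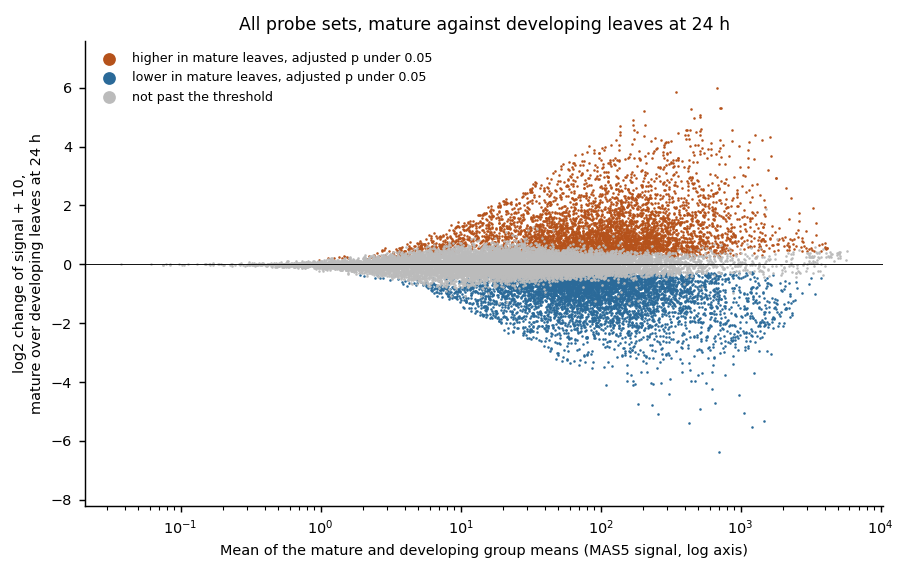
Each point is a probe set, with the mean of the 2 group means on the x axis (MAS5 signal, log axis) and the log2 change of signal + 10, mature over developing leaves at 24 h, on the y axis. Orange points (4775) passed the test and were higher in mature leaves, blue points (5457) were lower, and grey points did not pass. The 58 rises and 20 falls of at least 4 on the log2 scale are the outermost points.

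The 15 largest named rises had mature means of 273 to 2693, against developing means of 1.67 to 137. The 15 largest falls had mature means of 3.55 to 175, against developing means of 296 to 2332. No overlap at 24 h was a condition for naming these genes. In all 30 the mature values also lay outside the range of all 24 developing values. Of these genes 23 carry only a locus code in the tables used here, so their roles are not given. All log2 changes are of the signal plus 10, which understates the change of genes near background, and no fold is given where a group mean lay under 29.6, the 40th percentile of signal.

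AT2G32150 had the largest named rise, with signals of 864 and 881 in mature leaves, against 34, 4.96, 18.6 and 4.62 in developing leaves (log2 change 5.27 ± 0.40 SE, adjusted p = 6.4e-11). AT3G62550 reached 955 and 1056 in mature leaves, where the 4 developing replicates lay together at 20.2, 19.3, 20.7 and 19.7. In developing leaves this gene was at 302 ± 26.8 after 12 h, still under the mature values. STZ, a zinc finger transcription factor of stress responses, had 804 and 884 in mature leaves, against 35.3, 27.3, 28.3 and 16.8 in developing leaves (log2 change 4.56 ± 0.35, adjusted p = 7.5e-11). ORA47, an AP2/ERF factor linked to jasmonate synthesis, had 794 and 1069 in mature leaves and 40.5, 25.4, 35.8 and 23.8 in developing leaves, a 22.8-fold rise (adjusted p = 2e-13). The chitinase gene AT2G43570, listed as CHI, stood at 802 and 765 in mature leaves, against 36.1, 33.6, 27.2 and 28.1 in developing leaves. It averaged 152 ± 27 in developing leaves at 96 h, the nearest time to the mature level. The other rises that carry only a locus code include AT3G10930, with 384 and 293 in mature leaves and no developing value above 18.2 at any time. For AT1G76960 the mature signals were 398 and 277, and developing leaves held 2.7 ± 0.347 (24 h), 24.5 ± 5.52 (48 h) and 60.2 ± 12.9 (96 h).

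CCL, a transcript whose level follows the circadian clock, needs its time course beside it. It had 2576 and 2809 in mature leaves, against 174, 126, 115 and 135 in developing leaves at 24 h, a log2 change of 4.21 ± 0.19. In developing leaves it averaged 770 ± 163 (2 h), 1807 ± 166 (4 h) and 1955 ± 131 (12 h), with a highest single value of 2091. Both mature values were above all of these, and the part of sampling hour in the difference was not tested. GI (GIGANTEA), another clock gene, had 78.1 ± 11.4 in mature leaves and 50.7 ± 10.5 in developing leaves (log2 change 0.55, adjusted p = 0.0039).

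The deepest fall was that of AT2G33850, with 11 and 3.56 in mature leaves, against 1579, 1488, 1211 and 1290 in developing leaves (log2 change -6.37 ± 0.16, adjusted p = 1.9e-19). Developing leaves held 696 ± 112 of it even at 96 h. AT4G29030 had 14 and 6.01 in mature leaves, against 562, 650, 1147 and 1033 in developing leaves, and AT5G45670 had 5.63 and 4.64 against 654, 466, 425 and 483. Among falls with a known product was LCR69, a cysteine-rich peptide of the plant defensin family, at 42.2 and 72.9 in mature leaves, against 924, 962, 1233 and 1166 in developing leaves, 16.3-fold lower. XTH16, an enzyme that cuts and rejoins xyloglucan in the wall, had 23.3 and 16.5 in mature leaves, against 326, 380, 403 and 354 in developing leaves. AT4G29020 stayed measurable at both ages, at 214 and 136 in mature leaves and 2612, 2346, 2201 and 2169 in developing leaves, 12.9-fold lower. Separation from the developing values at 24 h was a condition for naming these genes.

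**Figure D2:**
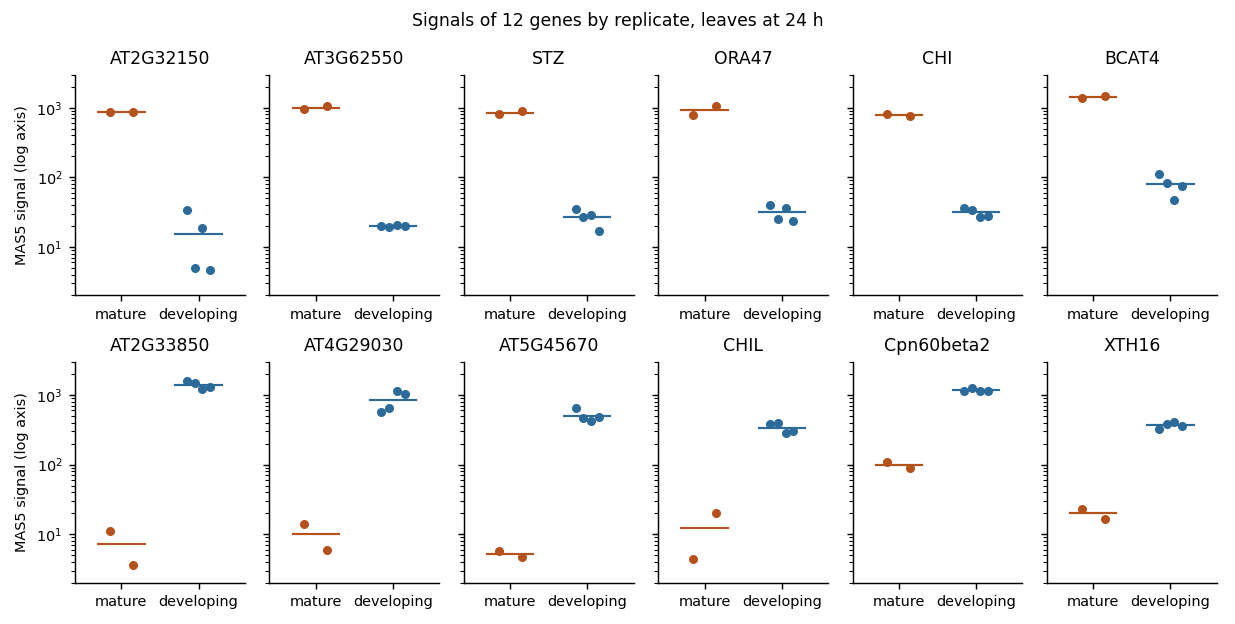
Points are the MAS5 signals (log axis) of the 2 mature (orange, left) and 4 developing replicates (blue, right) at 24 h for 12 genes, with the group mean as a line. The upper row holds genes that were higher and the lower row genes that were lower in mature leaves. In none of the 12 do the groups overlap, which was a condition of choice for those named by size of change.

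Genes of cell division were nearly all lower in mature leaves. Of 11 measured members of the list of cell cycle and DNA replication genes, 10 fell, 0 rose, and the median log2 change was -1.50, against -0.02 over all named genes. TOPII, the topoisomerase that untangles replicated chromosomes, had 2.46 and 2.06 in mature leaves, against 58.1, 96.9, 133 and 103 in developing leaves (log2 change -3.08 ± 0.31, adjusted p = 6.3e-09). PRL, the MCM7 subunit of the replicative helicase, had 43.3 and 34.3, against 208, 243, 267 and 231, a 5.08-fold fall. POLA3, a subunit of DNA primase, fell to 32.2 ± 8.48 in mature leaves, against 155 ± 17.9 in developing leaves. The mitotic kinase gene AUR2 had 16 ± 2.75 in mature leaves and 78.6 ± 13 in developing leaves. SIM, which encodes an inhibitor of cyclin-dependent kinases that favours endoreduplication, fell as well, to 29.3 ± 2.38, against 144 ± 10.9. The list was therefore lower both in genes that drive and in a gene that restrains division. The remaining member, cdc2cAt, was near background at both ages (1.6 in mature and 1.47 in developing leaves).

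Histones and the cytoskeleton followed partly. HTB2, a histone H2B, had 32.3 and 28.6 in mature leaves, against 245, 207, 182 and 166 in developing leaves, 5.15-fold lower. The linker histone gene HIS1-3, known to be induced by water shortage, rose to 108 and 163 in mature leaves, against 31.7, 18.8, 13.9 and 17 in developing leaves. HON4, for a protein with a linker histone domain, had 106 and 153 in mature leaves, against 181, 144, 200 and 179 in developing leaves (adjusted p = 0.043), and lost its call without mature replicate 1 (adjusted p = 0.57) and also without developing replicate 1, 3 or 4. Of 10 tubulin and microtubule genes, 7 fell and 2 rose. TUB7, a beta tubulin, had 51.8 and 60 in mature leaves, against 354, 367, 383 and 382 in developing leaves, and TUA6, an alpha tubulin, was 2.33-fold lower (668 ± 107, against 1560 ± 115). TUB6 did not pass (270 ± 26.5 in mature and 283 ± 67.8 in developing leaves), so the family did not move as a block, and without mature replicate 1 the list had 4 falls and 0 rises.

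Of 4 measured stomatal lineage genes, 2 fell and the other 2 did not pass. SPCH (SPEECHLESS), the bHLH factor that starts the lineage, had 2.29 and 3.13 in mature leaves, against 64.2, 115, 128 and 76.9 in developing leaves (log2 change -3.01 ± 0.24, adjusted p = 1.5e-10). STOMAGEN, the secreted peptide from mesophyll that promotes stomata, had 30.4 and 44.2, against 347, 331, 295 and 266, a 6.8-fold fall. MUTE, which ends the dividing stage, had 1.78 ± 0.0469 in mature and 9.91 ± 8.18 in developing leaves and did not pass (adjusted p = 0.14). FMA (FAMA), which acts as guard cells form, had 50.3 and 40.2 in mature leaves, against 65.4, 60.4, 38.8 and 62.4 in developing leaves. Its groups overlapped and the test was not passed (adjusted p = 0.31).

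Regulators of leaf shape and growth moved both ways. Of 8 growth regulators, 3 rose and 3 fell, and of 7 genes of leaf polarity and meristems, 2 fell. TCP15, a factor that controls the shift from division to expansion, had 88.1 and 80.1 in mature leaves, against 229, 214, 223 and 225 in developing leaves. YAB3, a YABBY factor of the lower leaf side, had 66.1 and 65.3, against 187, 199, 171 and 184, 2.58-fold lower. PHV (PHAVOLUTA), a homeodomain factor of the upper side, was 1.46-fold lower, a call lost without mature replicate 2 (adjusted p = 0.091). CYP78A9, a cytochrome P450 that promotes organ growth, rose to 112 and 152 in mature leaves, against 30.8, 20.9, 15.1 and 32.1 in developing leaves. ARL (ARGOS-LIKE), a growth promoter, had 177 ± 44.7 in mature and 91.4 ± 23.7 in developing leaves, and its call too was lost without mature replicate 2 (adjusted p = 0.12).

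Among 37 genes of wall loosening and synthesis, 13 fell and 8 rose, and the list's median was -0.04. The expansin gene EXPA8 had 708 and 823 in mature leaves, against 98.4, 61.9, 76.2 and 70.3 in developing leaves, a 9.02-fold rise. EXPA16 and EXLA1, also of the expansin superfamily, rose to 66.3 ± 4.41 and 62 ± 12.7 in mature leaves, against 19.1 ± 5.13 and 2.94 ± 0.799 in developing leaves. PME61, a pectin methylesterase, fell to 81.6 and 59.8 in mature leaves, against 197, 331, 204 and 293 in developing leaves. Other expansin genes fell, among them EXPB3, with 64.4 and 64.5 in mature leaves, against 140, 155, 206 and 165 in developing leaves, and EXPA4, with 72.7 and 72, against 127, 183, 236 and 190.

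**Figure D3:**
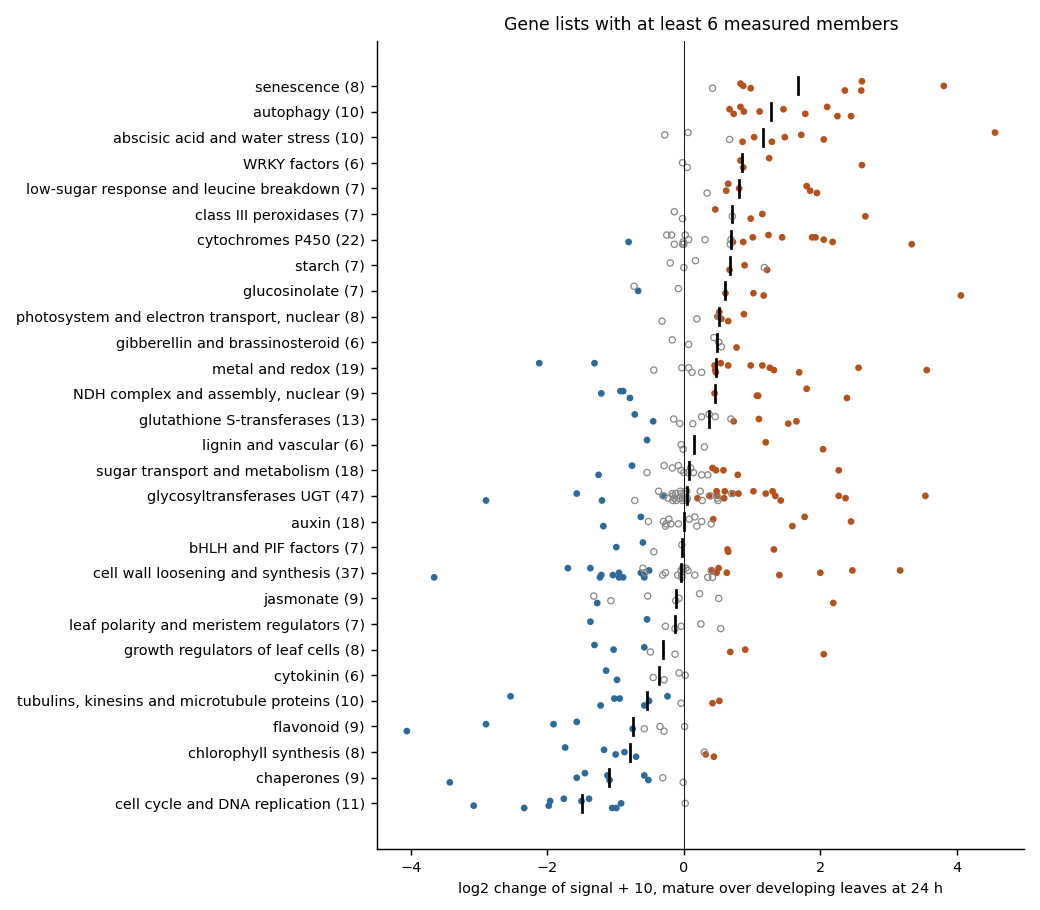
Each point is a measured gene of a plotted list, each list with at least 6 members, at its log2 change of signal + 10, mature over developing leaves at 24 h; filled points passed an adjusted p of 0.05 (orange higher, blue lower in mature leaves), open points did not, and black bars are the list medians. All 10 autophagy genes lie right of 0, and 10 of the 11 cell cycle genes passed on the left.

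Genes of recycling and ageing were higher in mature leaves. All 10 measured autophagy genes rose, with a median log2 change of 1.28, and all 10 also passed with each replicate left out in turn. ATG8 proteins are the ubiquitin-like tags that build the autophagosome membrane. ATG8F had 1781 and 1951 in mature leaves, against 368, 296, 343 and 330 in developing leaves, a 5.46-fold rise (adjusted p = 1.4e-12). The gene listed as APG8H had 979 and 871, against 221, 193, 176 and 159, and ATG8H had 151 and 97.7, against 31.2, 25.6, 26.1 and 30.5. ATG8E had 294 and 306 in mature leaves, against 106, 59.6, 62.5 and 37.1 in developing leaves, but 280 ± 59.2 in developing leaves at 12 h. The mature values of 8 of the 10 genes lay above all 24 developing values, and ATG8E was one of the exceptions.

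Of 8 senescence genes, 7 rose and 0 fell, with a median of 1.67. PPDK, pyruvate orthophosphate dikinase, which helps move nitrogen out of ageing leaves, had 527 and 540 in mature leaves, against 40.1, 35.7, 16.7 and 26.8 in developing leaves, a 14-fold rise. In developing leaves it was at 102 ± 7.59 by 96 h. WRKY53, a transcription factor that promotes senescence, had 216 and 162 in mature leaves, against 28.2, 19.8, 20.7 and 20.8 in developing leaves (log2 change 2.61 ± 0.19). WES1 (GH3.5), an enzyme that joins auxin to amino acids, had 304 and 324, against 45.9, 34.4, 60.3 and 37.2. SAG29, a sugar transporter of the SWEET family named as a senescence gene, differed between the mature replicates (47.3 and 140), which were both above the developing values of 6.83, 6.8, 5.93 and 13.5. SAG101, a partner of the defence regulator EDS1, had 50 and 44.9 in mature leaves, against 23, 24.5, 10.1 and 21.4 in developing leaves. YLS5 did not pass (220 ± 35.3 in mature and 162 ± 19.5 in developing leaves, adjusted p = 0.077).

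Low-sugar genes were higher, 6 of 7 with 0 lower. AKINBETA1, a subunit of the SnRK1 energy-sensing kinase, had 381 and 447 in mature leaves, against 142, 83.4, 86.2 and 95.1 in developing leaves at 24 h. MCCA and IVD, enzymes of leucine breakdown, had 132 ± 0.934 and 150 ± 15.1 in mature leaves, against 29.3 ± 4.26 and 36.4 ± 6.44 in developing leaves. At 12 h developing leaves held 484 ± 114 of AKINBETA1 and 138 ± 35.8 of MCCA, so for these the mature level at 24 h lay within the range of developing leaves over the day. IVD was at most 53.2 in any developing replicate. In starch metabolism 3 of 7 genes rose, among them the amylase AMY1 (93.3 and 61.9 in mature leaves, against 31.7, 25, 22.9 and 28.7 in developing leaves) and the branching enzyme SBE2.2 (307 and 321, against 112, 187, 183 and 189).

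Of 18 sugar transport genes, 5 rose and 2 fell. SWEET11, which releases sucrose for phloem loading, had 514 and 753 in mature leaves, against 150, 133, 102 and 105 in developing leaves, a 4.82-fold rise. SWEET1, a glucose transporter, went the other way, with 184 and 184 in mature leaves and 444, 537, 367 and 473 in developing leaves. The vacuolar fructose transporters also differed in direction, with SWEET17 at 441 ± 5.2 in mature and 254 ± 52.9 in developing leaves and SWEET16 at 58.9 ± 3.43 in mature and 108 ± 21.2 in developing leaves. Without mature replicate 1 the list had 3 rises.

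Of 8 nuclear genes of the photosystems and electron transport, 5 rose and 0 fell, with a median of 0.52. PGRL1B, a protein of cyclic electron flow, had 264 and 252 in mature leaves, against 138, 128, 128 and 151 in developing leaves, 1.84-fold higher. PSBY and PSAN, for photosystem subunits, were 1.57 and 1.47-fold higher and ATPC1, for the ATP synthase gamma subunit, 1.44-fold higher, but without mature replicate 2 only 1 of the 5 calls was left, and without mature replicate 1 there were 4. LHCB4.2 rose to 4372 and 5057, against 3805, 2676, 2926 and 2406, while its relative LHCB4.3 fell to 241 and 233, against 437, 438, 351 and 352. The first of these was lost without mature replicate 2 (adjusted p = 0.054). In carbon fixation, PRK (phosphoribulokinase, 3441 ± 541 in mature and 2266 ± 681 in developing leaves) rose, a call lost without mature replicate 2 (adjusted p = 0.15). SBPASE (1911 ± 285 in mature and 2220 ± 355 in developing leaves) did not pass, and the photorespiratory gene HPR was 1.69-fold higher.

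Chlorophyll synthesis had 5 falls and 2 rises among 8 genes. GSA1, which makes the precursor 5-aminolevulinic acid, had 168 and 180 in mature leaves, against 529, 645, 645 and 613 in developing leaves, 3.35-fold lower (adjusted p = 2.3e-09). HEMB1 and HEME2, later enzymes of the same pathway, had 372 ± 43.4 and 348 ± 34 in mature leaves, against 750 ± 48.1 and 798 ± 72.1 in developing leaves. CHLI2, a subunit of magnesium chelatase, was at 119 ± 11.5 in mature and 199 ± 15 in developing leaves. The list had 5 falls with each replicate left out in turn, but 1 rise in place of 2 without developing replicate 4, mature replicate 1 or mature replicate 2. HEMA2, a glutamyl-tRNA reductase of the first committed step, was the larger rise, with 80.1 and 71.5 in mature leaves, against 57.2, 51.3, 51.4 and 52.3 in developing leaves (log2 change 0.44, adjusted p = 0.017). CHLM, the methyltransferase after magnesium chelatase, rose 1.25-fold, and PORB, the light-driven reductase, did not pass (adjusted p = 0.17). NOL, a subunit of chlorophyll b reductase in the breakdown pathway, was 1.39-fold higher, a call lost without mature replicate 1 (adjusted p = 0.059), mature replicate 2 (0.14) or developing replicate 4 (0.076).

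Nuclear genes of the NDH complex, which returns electrons to plastoquinone, passed in both directions. The subunit genes NdhL, NdhN and NdhS and the gene PIFI were higher in mature leaves, as was the assembly gene CRR42. PIFI had 1566 and 1584, against 381, 300, 237 and 272, a 5.22-fold rise, and NdhS had 926 and 1055, against 393, 279, 254 and 213. Of the CRR genes, CRR21, which encodes an RNA editing factor for an ndh transcript, fell to 37.5 and 36.7, against 71.8, 75.5, 85.2 and 76.7. CRR22, CRR28 and CRR41 fell too, so that 5 of 9 genes rose and 4 fell.

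Plastid-encoded genes also passed in both directions. Of 69 measured genes, 10 rose, 10 fell and 49 did not pass. Both directions were under the shares over all named genes (18.4% higher, 22.3% lower). Both mature values lay above all developing ones in 14 genes and below them in 3, against 13.1% and 16.5% over all named genes. Plastid genes for photosystem II held 7 of the 10 rises, out of 15 measured. psbA, which encodes the D1 protein, had 3658 and 4295 in mature leaves, against 1726, 1496, 1358 and 565 in developing leaves (log2 change 1.73 ± 0.50, adjusted p = 0.006). psbE, a cytochrome b559 subunit, had 1872 and 1983, against 540, 708, 670 and 516, a 3.16-fold rise (adjusted p = 2.3e-06). Genes of the plastid ribosome and polymerase held 9 of the 10 falls: 5 of 7 for the large subunit, 2 of 8 for the small subunit and 2 of 4 for the RNA polymerase. rpl22 had 358 and 449 in mature leaves, against 1008, 1481, 1431 and 1282 in developing leaves, and rpl14 had 211 and 295, against 740, 849, 816 and 891. The tenth fall was ycf3, an assembly factor of photosystem I, with 71.7 and 145, against 360, 326, 343 and 360. No plastid gene of photosystem I (5), cytochrome b6f (6) or ATP synthase (6) passed, and of 10 plastid NDH genes 1 rose, with 0 rises without mature replicate 2. The large-subunit falls numbered 4 or 5 with any replicate left out. Without mature replicate 2 the photosystem II rises dropped to 2 and psbA was no longer past the threshold (adjusted p = 0.06), while psbE kept its call under each alternative except the minimum change of 2-fold. Without mature replicate 1, the falls of the small subunit and the polymerase dropped to 0.

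**Figure D4:**
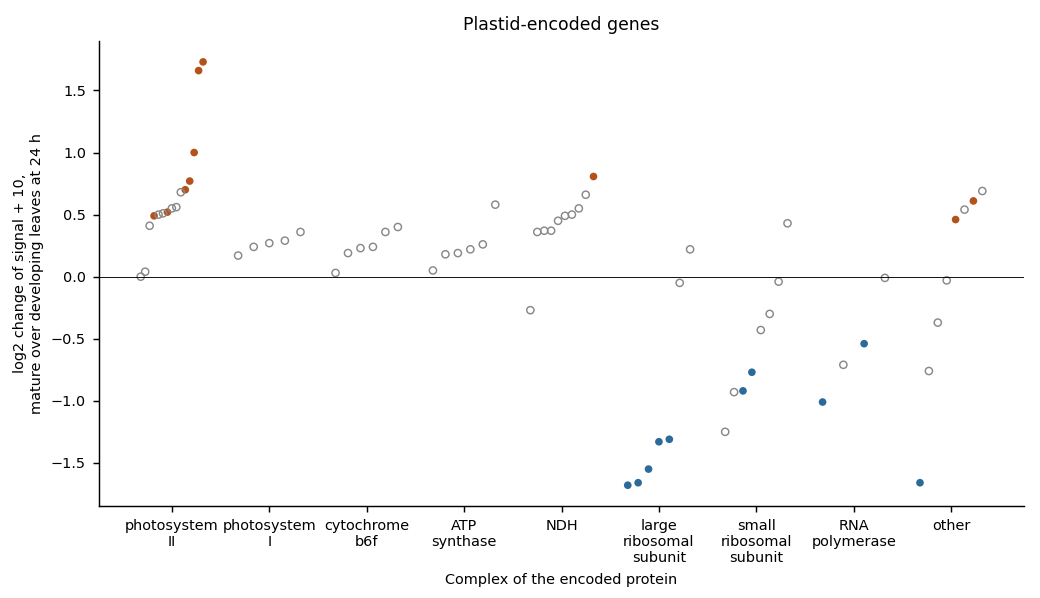
Points are the 69 plastid-encoded genes at their log2 change of signal + 10, mature over developing leaves at 24 h, sorted by the complex of the encoded protein; filled points passed an adjusted p of 0.05 (orange higher, blue lower in mature leaves) and open points did not. The 7 photosystem II genes that passed lie above 0, and the 9 ribosomal and polymerase genes that passed lie below it.

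Chaperones were lower in mature leaves, 7 of 9 genes with 0 higher. Cpn60beta2, a subunit of the plastid chaperonin that folds Rubisco, had 109 and 89.5 in mature leaves, against 1127, 1280, 1124 and 1142 in developing leaves, a 10.8-fold fall (adjusted p = 6.5e-18). Cpn60beta3 fell to 26 ± 1.6 in mature leaves, against 98.8 ± 26.2 in developing leaves. The genes Hop1 and Hop2, for proteins that link Hsp70 with Hsp90, were 2.13 and 2.17-fold lower, and Hsp70-2 was at 168 ± 12.2 in mature and 255 ± 14.9 in developing leaves. In RNA metabolism, PRH75, a DEAD-box helicase of the nucleolus, had 200 and 224, against 681, 617, 652 and 712. The mitochondrial pentatricopeptide repeat genes PPR336 and PPR596 had 29.2 ± 1.32 and 38.3 ± 2.15 in mature leaves, against 173 ± 27.5 and 194 ± 39.3 in developing leaves.

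Secondary metabolism differed by pathway. For flavonoids, 5 of 9 genes fell and 0 rose. CHIL, a chalcone isomerase-like protein that aids the first step, had 4.32 and 20.2 in mature leaves, against 382, 397, 283 and 300 in developing leaves (log2 change -4.06 ± 0.22, adjusted p = 1.3e-13). UGT78D1, which adds rhamnose to flavonols, had 38.5 and 35.9, against 356, 377, 282 and 363, 7.46-fold lower, and UGT78D2, which adds glucose, was 2.97-fold lower. HYH, a light-signalling factor that activates the pathway, had 14.8 and 27 in mature leaves, against 108, 102, 97.9 and 107 in developing leaves. In developing leaves HYH averaged 28.4 ± 8.16 (2 h), 17.4 ± 1.5 (4 h) and 21.5 ± 4.04 (12 h), around the mature mean of 20.9 at 24 h.

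For glucosinolates, the sulphur-rich defence compounds of the cabbage family, 4 of 7 genes rose and 1 fell. BCAT4, which starts the elongation of methionine for these compounds, had 1362 and 1490 in mature leaves, against 112, 83.8, 46.5 and 74.4 in developing leaves, a 16.7-fold rise, and no developing value at any time exceeded 121. The transporter GTR1 had 482 and 484, against 242, 219, 171 and 210, and the glucosyltransferase UGT74B1 was 2.03-fold higher. AOP1 fell to 67 ± 3.74 in mature leaves, against 113 ± 10.2 in developing leaves.

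Of 22 cytochrome P450 genes 10 rose and 1 fell, and of 47 UGT glycosyltransferase genes 16 rose and 4 fell. CYP71B23 had 226 and 222 in mature leaves, against 17.5, 15.7, 9.66 and 10.6 in developing leaves, and CYP71B26 had 354 and 422, against 86.6, 107, 74.8 and 112. UGT72E1, which glucosylates lignin precursors, had 174 and 216, against 7.52, 10.2, 4.51 and 8.64. Without mature replicate 1 or 2, 11 and 10 UGT genes were higher. Of 13 glutathione S-transferase genes 4 rose and 2 fell, led by GSTU16 (232 and 325 in mature leaves, against 93.1, 88.6, 57.2 and 90.8 in developing leaves).

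Stress and redox genes were mostly higher. Of 10 genes of abscisic acid and water stress, 7 rose and 0 fell. COR15A, which protects chloroplast membranes in the cold, had 221 and 463, against 77.6, 68, 75.6 and 59.9, so the mature replicates stood far from each other though both were above the developing values at 24 h. The dehydrin gene COR47 had 567 and 760, against 225, 204, 178 and 169, a 3.29-fold rise. In the metal and redox list 12 of 19 genes rose and 2 fell. MT1C, a metallothionein, had 676 and 549 in mature leaves, against 35.5, 37.2, 74.1 and 32.5 in developing leaves, an 11.8-fold rise. The glutaredoxin genes GRX480 and GRXC1 rose as well, GRX480 to 277 and 191 in mature leaves, against 52.4, 20, 26.4 and 30.9 in developing leaves, and GRXC1 to 348 ± 37.8, against 103 ± 27.4. SAPX, the stromal ascorbate peroxidase, fell to 57.5 and 75.3, against 238, 362, 339 and 359.

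The hormone lists were small, and their counts stand beside 18.4% higher and 22.3% lower over all named genes. No difference between these lists is read from them. In the auxin list 4 of 18 rose and 2 fell, with IAA29, an auxin-induced repressor that also responds to shade, at 172 and 207 in mature leaves, against 39.5, 22.8, 19.9 and 25.7 in developing leaves. HAT2, a homeodomain factor of the same responses, had 242 ± 58.9 in mature leaves, against 63.6 ± 8.7 in developing leaves. Of the cytokinin response regulators 2 of 6 fell and 0 rose; ARR15 had 44.4 and 36.2, against 89.4, 90.7, 114 and 109. In the ethylene list of 3 genes 2 rose, EIN3 and ORA47, and 0 fell. ORA47, described above as linked to jasmonate synthesis, is counted here and not in the jasmonate list. EIN3, the main transcription factor of ethylene signalling, had 475 and 513, against 246, 263, 269 and 251, 1.89-fold higher. Of 9 jasmonate genes 1 rose, 1 fell and 7 did not pass. OPCL1, an enzyme of jasmonate synthesis, rose to 635 and 707, against 200, 150, 110 and 110. The defence peptide gene THI2.1 was lower (15.3 ± 5.67, against 52.8 ± 20.2), a call lost without mature replicate 1 (adjusted p = 0.079). Of 6 WRKY genes 4 rose.

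Within the days sampled, some of the genes shown here moved in developing leaves towards the mature level, and CHIL moved away from it. PPDK, EXPA8 and CHI were each highest in developing leaves at 96 h, at 102 ± 7.59, 153 ± 9.47 and 152 ± 27, against 533 ± 8.89, 765 ± 81.5 and 784 ± 25.8 in mature leaves. SPCH was lowest in developing leaves at 96 h and 12 h (48.5 ± 6.97 and 51.5 ± 2.34), against 2.71 ± 0.589 in mature leaves. CHIL averaged 197 ± 31.8 (2 h), 121 ± 26.3 (4 h) and 114 ± 7.86 (12 h). It then moved away, from 340 ± 57.1 at 24 h to 434 ± 46.2 at 96 h, against 12.3 ± 11.2 in mature leaves. AT3G62550 climbed within the first day, from 67.1 ± 9.81 (2 h) to 302 ± 26.8 (12 h). From 24 h on it stayed level, at 19.9 ± 0.609 (24 h), 17.6 ± 6.6 (48 h) and 18.2 ± 3.4 (96 h), against 1005 ± 71.2 in mature leaves. The part of sampling hour in these time courses was not tested. How many genes moved each way was not counted. Of the 182 genes named by rule, 140 had both mature values outside all 24 developing values, against 13.1% above and 16.5% below over all named genes; the rule picked changed genes, so the count is a description.

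**Figure D5:**
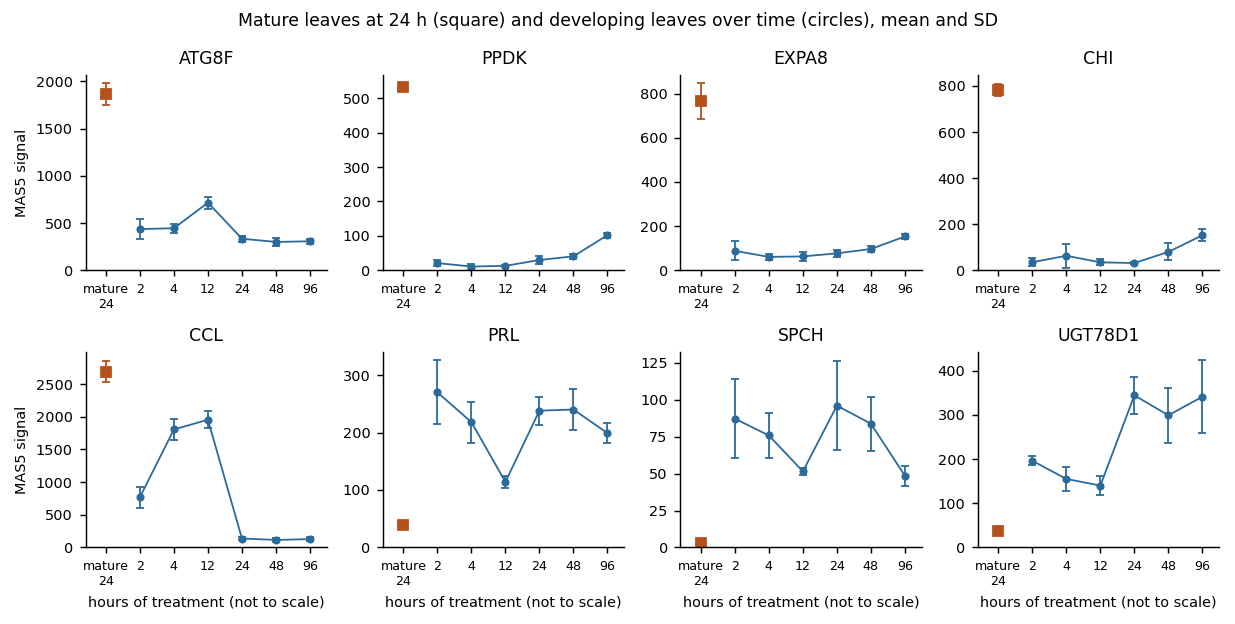
MAS5 signal of 8 genes in mature leaves at 24 h (orange square, n = 2) and in developing leaves at 2 to 96 h of treatment (blue circles, n = 4 each, times not to scale), as means with SD bars. The mature value lies above the developing curve for ATG8F, PPDK, EXPA8, CHI and CCL and below it for PRL, SPCH and UGT78D1.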

How the data were processed

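The authors deposited 1 intensity per probe set and array. The submitters' processing notes name MAS5 (its version was not given in the sources used here). The values are linear and were found scaled to a common 2% trimmed mean; values are not centred and each array has 1 colour. Detection calls were not used here. Of 22810 probe sets, the 64 controls were left out and the other 22746 were tested without a filter on low signal, since a filter on the mean over mostly developing samples would drop genes on only in mature leaves. Genes were named from the platform table for the 13513 probe sets with 1 gene (503 have several, 8730 are not listed), of which 13436 matched the TAIR10.1 annotation by gene identifier. Each gene was represented by its brightest probe set on average. One gene group is not reported here.

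Signals were taken as log2 after adding 10, the doubled 24 h replicate 1 was averaged, and 7 groups (26 replicates, 19 residual degrees of freedom) were fitted with limma 3.58.1 in R 4.3.3 (lmFit, eBayes with trend), with Benjamini-Hochberg adjustment over all probe sets, two-sided, threshold 0.05. One array titled 4 h replicate 1 has another treatment note and entered no group. The steps were tested on simulated data. Tables and plots used pandas 2.3.3.

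The members, lists and tests were chosen with earlier results of these data known. The text names the 15 largest rises and falls with 1 gene, no overlap at 24 h and a higher group mean above 46.3, the median of all probe sets, plus up to 5 changed members of each of 70 gene lists (57 with a measured member, 43 with at least 3). From the lists, 11 members were left out because their symbol belongs to another gene, a choice made on names after the files were seen. Some further list members are named to complete a list, after their values were seen. Alternatives were other pseudocounts, filters, normalizations, reference samples, weights, a replicate block, a minimum change of 2-fold and leaving out each replicate.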

Additional observations from a re-analysis of the deposited data

Results flagged for a closer look

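In 12 of the 182 named genes, 1 of the 4 developing replicates at 24 h lay far from the other 3 by Dixon's test, and chance flags about 1 in 20 groups. The 2 mature replicates are too few for this test. Replicate 1 was the low one for SBE2.2 (112, the others 183 to 189), Hop2 (198, the others 295 to 313) and SAPX (238, the others 339 to 362). It was the high one for WRKY53 (28.2, the others 19.8 to 20.8) and for the flower marker SPL, near background (4.07, the others 2.64 to 2.7). Replicate 3 was high for AUR2 (97.9, the others 70.8 to 74.7), MT1C (74.1, the others 32.5 to 37.2) and MYBC1, a MYB-related factor (27, the others 3.87 to 5.41). It was low for GSTU16 (57.2, the others 88.6 to 93.1) and FMA (38.8, the others 60.4 to 65.4). Replicate 2 was high for Cpn60beta2 (1280, the others 1124 to 1142), and replicate 4 for SAG29 (13.5, the others 5.93 to 6.83). Of these genes FMA and SPL did not pass the test, and in the other 10 both mature values lay outside the range of the 4 developing replicates.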

How the results depend on the processing

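No named gene was reversed under any of the 22 alternatives, and of the probe sets called both here and in an alternative, 0 had the opposite sign; for those that lost the call the sign was not counted. A filter at the 60th percentile of signal left 6561 changed probe sets (2635 higher in mature leaves) and 2929 of at least 2-fold (1086 higher). Only 9098 were tested there, and the share that passed was larger, 72.1% against 45.0%. Of the calls under this filter 40.2% were higher in mature leaves, against 46.7% without it. Testing against a minimum change of 2-fold gave 2437 (1188 higher, 1249 lower), with 74 of the 248 called list members. A pseudocount of 50 left 2620 changes of at least 2-fold (1324 higher, 1296 lower), since it shrinks changes of dim genes. Leaving out 1 replicate gave 8547 to 10206 changed probe sets (4008 to 4821 higher, 4505 to 5385 lower), 4594 to 4846 of at least 2-fold, and 208 to 250 list members; where a mature replicate was left out, the lone one is assumed to vary like the other groups. Without mature replicate 1 or 2, 8466 and 8254 of the 10232 calls were also made. Over named genes and alternatives, 3782 of 3931 results kept direction and side of the threshold, 147 lost the call and 2 gained one, and 75 genes lost it at least once. The replicate block gave 10219 changed probe sets (4764 higher, 5455 lower) and 245 list members, but the numbers were not taken to pair the samples. The difference between replicates 1 and 2 correlated at -0.0902 between mature and developing leaves at 24 h. Among the developing groups, deviations of equal number correlated at a median of 0.0856 (lowest -0.0898, highest 0.619), and those of different number at -0.0301. Dim probe sets have the least certain values, since no detection calls were used, and only 2 mature arrays stand behind each value.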

Other observations

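Further gene families were picked by the stem of their symbol for their counts after the data had been seen, so the counts are a description beside the shares over all named genes (18.4% higher, 22.3% lower). Of 12 NRP genes, subunits of the nuclear RNA polymerases, 9 were lower in mature leaves and 0 higher, with a median log2 change of -0.76. NRPA1, the large subunit of polymerase I, which makes ribosomal RNA, had 22.6 and 26.8 in mature leaves, against 82.2, 153, 145 and 161 in developing leaves. NRPB12, a small shared subunit, had 52.9 and 53 in mature leaves, against 206, 201, 222 and 203. Of 6 LSM genes, for small RNA-binding proteins of splicing and decay, 4 were lower, and of 15 IQD genes, for calmodulin-binding proteins, 8 were lower, each with 0 higher.

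Calmodulin-like CML genes were higher in 4 of 7, and PUB genes, for U-box ubiquitin ligases, in 5 of 9, each with 0 lower. Without mature replicate 1, 3 PUB genes were higher and 1 lower. CML41 had 113 and 95.1 in mature leaves, against 25.1, 15.5, 21.6 and 38.7 in developing leaves. PUB19 had 197 and 261 in mature leaves, against 43.8, 35.8, 27.7 and 36.6. Of 7 class III peroxidase genes 4 were higher, and 2 without mature replicate 2.

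Some families held members that passed in opposite directions. VPS2.1 had 256 and 240 in mature leaves, against 79.8, 78.1, 82.6 and 79.9 in developing leaves, while VPS2.2, of the same ESCRT-III protein class, averaged 8.96 in mature leaves, against 127 in developing leaves. The tetraspanin gene TET8 had 1804 and 2051 in mature leaves, against 239, 262, 223 and 207, and TET7 had 104 and 89.3, against 245, 222, 216 and 211. The subtilase gene SBT1.3 had 64.6 and 45.2 in mature leaves, against 564, 558, 563 and 627, and SBT3.3 had 56.6 and 64.6, against 3.23, 2.65, 2.76 and 2.91.

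The conditions for naming by size were a passed test, no overlap at 24 h and a higher group mean above 46.3. Of the genes that met them, 149 had a log2 change of at least 3 in either direction. Among these, 7 pairs were next to each other in the annotation, 5 with the same sign. The share of such pairs among all genes was not worked out, so these counts are a description. AT4G29020 and AT4G29030 changed by -3.69 and -5.39. AT1G62500 and AT1G62510 were neighbours with opposite signs, at -4.42 and 3.70.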
